A study of Mus musculus with 20 samples.

Results

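The genes described here are 10 canonical targets of the transcription factor p53: Cdkn1a, Mdm2, Bbc3, Pmaip1, Perp, Ccng1, Sesn2, Trp53inp1, Eda2r and Bax. They were chosen by symbol, with earlier results of these data known, from the 38355 genes of the deposited expression table. Each symbol matched 1 row. All 10 passed the filter on low values, which kept 15738 genes for testing. Their levels were read in 20 libraries of polyadenylated RNA from primary mouse tracheal epithelial cultures grown on porous membranes and then exposed to air, where basal cells form secretory and multiciliated cells. The groups were wild type and p73 knock-out, each harvested on days 0, 4, 7 and 14 after air exposure, with 3 wild-type and 2 knockout-labelled libraries at each day. The series describes the knockout mice as global, so the allele is not restricted to a cell type. No source used here gives the age of the mice or says whether animals were pooled.

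p53 is a transcription factor that DNA damage and other stresses stabilise. It binds DNA through paired copies of a short motif, the half-site, and its relatives p63 and p73 recognise closely related sites. Its targets stop the cell cycle, adjust metabolism, start apoptosis, or, as with Mdm2, switch p53 itself off. In the airway epithelium p63 marks basal cells and p73 is made in basal and multiciliated cells. Several p53 targets, Perp above all, are also known targets of p63 in stratified epithelium.

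Across the time course, 4 of the 10 targets fell in wild type between day 0 and day 14, 2 rose, and the remaining 4 did not pass the test. In that comparison 18.5% of all tested genes were lower and 21.8% higher. Among the called targets only Pmaip1 kept its call under all 32 alternative settings. The fall was largest in Pmaip1, which encodes Noxa, a BH3-only protein that neutralises Mcl-1: its level dropped from 189 ± 73.7 CPM to 23.9 ± 8.07 CPM (SD, n = 3). Between genotypes no member passed at any day in limma or edgeR when libraries were treated as unpaired, and DESeq2 called 1, Perp at day 0. This desmosome-associated gene stood higher in the labelled-knockout library of all 8 pairs with the same replicate number, and it passed in limma on days 0, 4 and 7 once those numbers entered the model. Without labelled-knockout replicate 2 at all days, its unpaired log2 differences were 0.79, 0.55, 0.32 and 0.05 on days 0, 4, 7 and 14. In the authors' deposited table Perp had no adjusted p under 0.05.

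Sequence around the transcription starts was taken from RefSeq for the genome build GRCm38.p6, and 7 of the 10 genes matched, with 10 windows in all. Each window runs from 250 bases before a start to 50 bases after it. The p53 half-site, a motif of 10 letters read on both strands, lay in 4 of the 10 windows, and in 8.36% of all 32851 windows in the table. The 4 windows that hold it are shown up to the base before the start, so that the place of the matching letters can be read. Whether p53 binds or acts through these letters was not tested. Capitals mark the half-sites, and each line reads 5′ to 3′ on the strand of the gene.
Cdkn1a, chr17:29090729-29090978, plus strand: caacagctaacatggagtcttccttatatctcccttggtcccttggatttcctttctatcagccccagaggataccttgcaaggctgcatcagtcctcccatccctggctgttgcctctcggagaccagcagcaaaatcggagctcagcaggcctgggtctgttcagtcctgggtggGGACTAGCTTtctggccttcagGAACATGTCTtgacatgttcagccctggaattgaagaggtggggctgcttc
Mdm2, chr10:117710759-117711008, minus strand: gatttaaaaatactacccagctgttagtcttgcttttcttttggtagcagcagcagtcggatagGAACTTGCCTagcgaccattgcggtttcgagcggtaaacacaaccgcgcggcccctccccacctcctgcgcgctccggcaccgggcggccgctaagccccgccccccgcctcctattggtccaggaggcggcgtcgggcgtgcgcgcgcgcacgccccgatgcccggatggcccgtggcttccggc
Ccng1, chr11:40755287-40755536, minus strand: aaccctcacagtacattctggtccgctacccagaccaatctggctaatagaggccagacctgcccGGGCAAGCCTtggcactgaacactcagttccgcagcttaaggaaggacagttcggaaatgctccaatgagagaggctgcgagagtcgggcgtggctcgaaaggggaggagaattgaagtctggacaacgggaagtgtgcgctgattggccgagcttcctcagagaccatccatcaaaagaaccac
Bax, chr7:45466899-45467148, minus strand: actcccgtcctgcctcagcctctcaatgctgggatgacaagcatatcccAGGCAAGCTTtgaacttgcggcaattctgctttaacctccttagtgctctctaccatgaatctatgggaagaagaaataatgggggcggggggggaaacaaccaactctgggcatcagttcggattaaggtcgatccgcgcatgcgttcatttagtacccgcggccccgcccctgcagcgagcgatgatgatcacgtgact

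The half-sites began 201 bases before the start in Bax, 185 in Ccng1 and 186 in Mdm2. The upstream window of Cdkn1a held 2 of them, 73 and 51 bases before the start, with 12 bases between them. A pair of half-sites with no more than 13 bases between them occurred in 24 windows of the whole table (0.0731%). The windows of Sesn2, Eda2r and Bbc3, the last with 3 starts, and the second window of Cdkn1a held no such letters. Among other promoter motifs, the GC box GGGCGG lay in 8 of the 10 windows (35.7% of all windows) and the CCAAT box, read as CCAAT, in 5 (37.4%). The 3 Bbc3 windows all held a GC box and in part share bases, so windows do not count as separate genes. The TATA box TATAAA lay in 1 window (13.6%). Neither the AP-1 motif TGANTCA (7.81% of all windows) nor the cyclic AMP motif TGACGTCA (1.79%) was found. Matches were counted on both strands, and a match describes letters in the window and not binding.

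Levels are given in CPM, the reads of a gene per 1 M reads of its library after TMM scaling (edgeR's trimmed mean of log ratios), in order of replicate number. Differences are log2 differences of CPM + 0.5 ± SE from limma, a linear model fitted to all 15738 genes with 1 mean per group. A gene was called at a false discovery rate (FDR), the Benjamini-Hochberg adjusted p over those genes, under 0.05. Nothing in the labels says that the libraries of a genotype came from separate animals at each day, although the series text speaks of biological replicates, so p-values measure the spread between libraries.

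The libraries held 3.27 to 31.5 M reads, the fewest in wild type day 4 replicate 3. The series text gives 3 replicates per genotype, while 2 knockout-labelled libraries per day were analysed here. The replicate 1 libraries of both genotypes at day 4 carry titles that name day 3, but every other label gives day 4, which was used. Trp73, which encodes p73, was not lower in the labelled-knockout libraries: its day 0 level was 2.70, 2.20 and 1.07 CPM in wild type, below the 49.2 and 48.7 CPM of the labelled knockout (log2 difference 4.38 ± 0.36, limma FDR 8.16e-06), and it was not called at days 4, 7 and 14. A count over the whole gene cannot show whether part of it was deleted, so the genotype stands here as labelled. Labelled-knockout replicate 2 lay furthest out on the second principal component at days 4, 7 and 14, at 44.2, 39.1 and 31.2 against 22.6, 17.8 and 15.4 for replicate 1. In that replicate the summed leukocyte markers reached 7214, 4853 and 2741 CPM at these days against 869, 984 and 865 CPM in replicate 1. Of the 8 leukocyte markers only Lyz2 passed the filter on low values, and between 2 and 7 of them were at 0 reads in each library. Calls of members below that rest on the labelled-knockout libraries are therefore set beside the same fit without it. For other named genes that fit is given where the call was lost, and its value for most of the rest.

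The culture's own cell markers moved with time in both genotypes. Multiciliated markers rose, all 12 of 12 being called higher at day 14 in wild type and 10 of 12 in labelled knockout, also without replicate 2. Their summed level went from 137 to 216 CPM at day 0 to 2355 to 3355 CPM at day 14 in wild type, and from 207 to 253 CPM to 1247 to 1349 CPM in labelled knockout. Basal markers fell for 9 of 12 and 8 of 12 genes, and fibroblast markers for 5 of 8 and 3 of 8 (7 of 12 and 2 of 8 in labelled knockout without replicate 2). In both genotypes 1 basal marker was called higher at day 14. Over all tested genes 21.8% were higher and 18.5% lower in wild type at that day, and 14.3% and 17.7% in labelled knockout. The basal sum in wild type was 4028 to 8356 CPM at day 0 and 3706 to 5220.5 CPM at day 14, ranges that overlapped. In labelled knockout it was 7986.5 to 10962 CPM and 6177 to 6500 CPM. The fibroblast sum went from 2215 to 3876 CPM at day 0 to 79.1 to 123 CPM at day 14 in wild type. In labelled knockout it went from 1843 to 2794 CPM to 156 to 385 CPM. Squamous markers summed to 627 to 1296 CPM in wild type at day 0 against 4936 to 8439 CPM in labelled knockout. At day 4 these sums were 450 to 728 CPM against 5313.5 to 7032 CPM, and at day 7 424 to 656 CPM against 2197 to 2923 CPM. At day 14 they were 354 to 477 CPM against 1582 to 1612 CPM. Each change described below therefore ran alongside a change in the makeup of the culture, whose part in the result was not tested. In whole-culture RNA, fewer cells of a type and less RNA per cell cannot be told apart.

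Per kilobase of exon, the 10 genes spanned a wide range of levels. Perp averaged 192 CPM per kb over the 20 libraries, followed by Cdkn1a at 85.7, Ccng1 at 80.2, Bax at 46.0 and Pmaip1 at 32.5 CPM per kb. Trp53inp1 and Mdm2 averaged 24.8 and 24.4 CPM per kb and Sesn2 12.4, while Bbc3 at 2.11 and Eda2r at 1.73 CPM per kb were the lowest of the 10. The ratio of the highest to the lowest library was 23.1 for Pmaip1, 6.10 for Sesn2 and 5.50 for Perp. It was 2.25 or less for Ccng1, Cdkn1a, Bax and Mdm2.

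**Figure D1:**
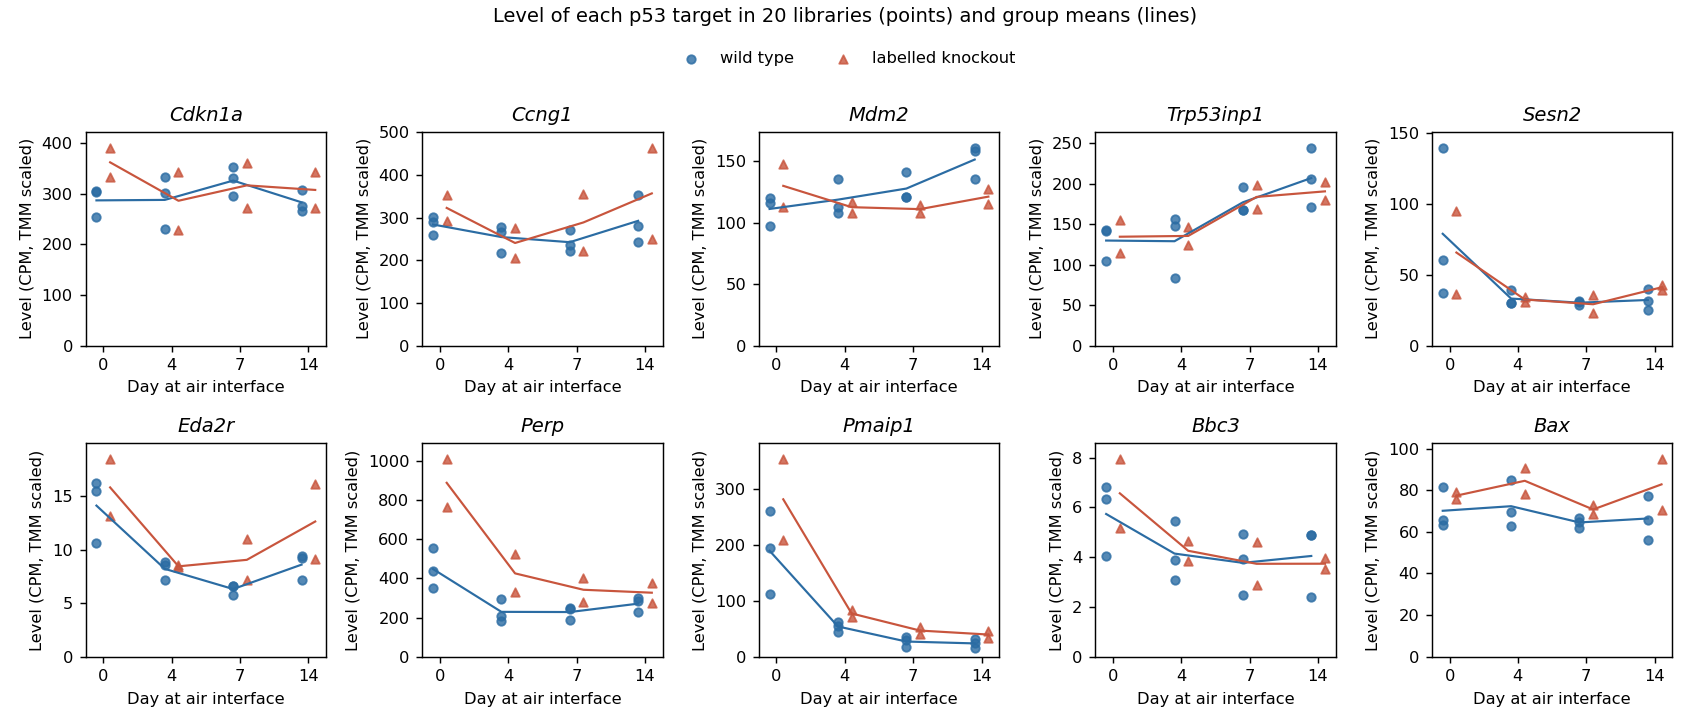
Level in TMM-scaled CPM (vertical axis, starting at 0) against day at the air interface (horizontal axis, days evenly spaced) for each of the 10 genes. Points are the 20 libraries, blue circles wild type (3 per day) and red triangles labelled knockout (2 per day), and lines join group means. Pmaip1 falls from 113 to 353 CPM at day 0 to 15.3 to 46.1 CPM at day 14, while Cdkn1a stays between 228 and 390 CPM throughout.

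Among the feedback regulators, Mdm2, the ubiquitin ligase that marks p53 for destruction, rose in wild type by the last day. Its gene lies on chr10:117688875-117710758, minus strand (GRCm38, as are the positions below). The wild-type libraries read 97.6, 116 and 121 CPM at day 0 and 135, 161 and 158 CPM at day 14. The lowest library at day 14 stood above the highest at day 0, and the difference was 0.45 ± 0.13 (limma FDR 0.0140). In the labelled-knockout libraries Mdm2 read 113 and 148 CPM at day 0 and 115 and 127 CPM at day 14, groups that overlapped (difference -0.09 ± 0.16, limma FDR 0.727, and 0.08 without replicate 2). The change to day 14 differed between genotypes by -0.53 ± 0.21, with an unadjusted p of 0.0227 and a limma FDR of 0.353, so it did not pass. At day 14 the 2 labelled-knockout libraries both lay below the 3 wild-type libraries (difference -0.32 ± 0.15, limma FDR 0.403). With replicate 2 of the labelled knockout left out, the difference in change was -0.39 and the genotype difference -0.37 (limma FDR 0.569 and 0.499). Leaving out day 0 replicate 1 ended the wild-type call (limma FDR 0.0564), as did leaving out day 14 replicate 2 (0.0595) or 3 (0.0525), or replicate 3 at all days (0.0566).

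Trp53inp1, a stress-induced p53 cofactor with a role in autophagy, also rose with time. It lies on chr4:11156431-11174379, plus strand. Wild type gave 105, 143 and 141 CPM at day 0, 83.1, 156 and 147 CPM at day 4, 168, 168 and 195 CPM at day 7 and 171, 206 and 244 CPM at day 14. All libraries of days 7 and 14 lay above all libraries of days 0 and 4, and the difference at day 14 was 0.67 ± 0.21 (limma FDR 0.0189). The labelled-knockout libraries followed closely, with 114 and 155 CPM at day 0, 169 and 198 CPM at day 7 and 179 and 202 CPM at day 14. Their differences of 0.46 ± 0.26 at day 7 and 0.52 ± 0.26 at day 14 did not pass (limma FDR 0.217 and 0.148). With the replicate number as a block these passed (limma FDR 0.0436 and 0.0223), as did wild type at day 7 (0.0132 against 0.109 without it). In the fit with no block, leaving out replicate 2 of the labelled knockout gave 0.61 and 0.71 (limma FDR 0.343 and 0.244). Between genotypes the difference lay between -0.11 and 0.12 at every day. The wild-type call at day 14 was lost without day 0 replicate 1 (limma FDR 0.0790), day 14 replicate 3 (0.0908) or replicate 3 at all days (0.121).

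The cell cycle targets, Cdkn1a and Ccng1, were called in no comparison. Cdkn1a, which encodes the cyclin-dependent kinase inhibitor p21, lies on chr17:29090976-29100727, plus strand. It read 304, 253 and 302 CPM in wild type at day 0 and 307, 275 and 267 CPM at day 14, with 230, 300 and 333 CPM at day 4 and 330, 295 and 352 CPM at day 7 between them. These ranges overlapped, and the differences from day 0 were -0.01, 0.19 and -0.02 (limma FDR 0.983, 0.444 and 0.951). At day 14 the 95% interval ran from -0.39 to 0.36. Labelled knockout stood higher at day 0, with 333 and 390 CPM against at most 304 CPM, but the difference of 0.34 ± 0.20 did not pass (limma FDR 0.569). In these libraries the values at day 14, 344 and 271 CPM, again overlapped day 0 (difference -0.24 ± 0.22, limma FDR 0.431). An antisense gene shares 273 exon bases with Cdkn1a and has no row in the table. No source used here gives the strand setting of the counting, so reads of the pair cannot be told apart.

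Ccng1, which encodes the cyclin G1 that recruits a phosphatase to Mdm2, lies on chr11:40748552-40755311, minus strand. Wild type read 260, 301 and 290 CPM at day 0 and 243, 280 and 354 CPM at day 14 (difference 0.03 ± 0.22, limma FDR 0.935). Its largest spread lay within the labelled-knockout group, where replicates 1 and 2 read 250 and 463 CPM at day 14 and 221 and 356 CPM at day 7.

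Sesn2, which encodes sestrin 2, an inhibitor of mTORC1 signalling that both p53 and the integrated stress response induce, was high in single libraries at day 0. It lies on chr4:132492032-132510501, minus strand. The wild-type libraries read 37.1, 60.2 and 140 CPM at day 0, 39.5, 30.4 and 29.9 CPM at day 4, 31.1, 28.6 and 31.3 CPM at day 7 and 31.7, 40.0 and 25.0 CPM at day 14. Replicate 3 at day 0 held more than all others, and replicate 1 at day 0 overlapped the libraries of days 4 and 14. The fall in wild type was called at day 7 (-1.15 ± 0.38, limma FDR 0.0254) and day 14 (-1.09 ± 0.38, limma FDR 0.0297). At day 4 the difference of -1.03 ± 0.38 missed in limma (FDR 0.0530) and passed in edgeR (FDR 0.0276) and DESeq2 (FDR 0.00611). Without replicate 3 of day 0 the differences at days 7 and 14 were -0.63 (limma FDR 0.159) and -0.56 (limma FDR 0.200). The day 7 call was lost without any 1 of the wild-type libraries of that day (limma FDR 0.0541 to 0.0685), and the day 14 call without its replicate 1 (0.0641) or 3 (0.112). Without wild-type replicate 3 at all days neither passed (0.255 and 0.478). Labelled knockout read 36.4 and 95.2 CPM at day 0 and 39.6 and 42.8 CPM at day 14, and no difference there passed in limma. Its day 0 libraries again stood far apart from each other, and the outcome turned on which of them was kept. Without replicate 1 of that day the differences at days 4 and 7 were -1.53 and -1.72 (limma FDR 0.0474 and 0.0214). Without replicate 2 at all days they were -0.04 and 0.0045, and 0.17 at day 14 (limma FDR 0.986, 1.0 and 0.893).

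Eda2r, which encodes a receptor of the tumour necrosis factor family for ectodysplasin A2, was the lowest of the genes that changed, with 24 to 467 reads per library. It lies on chrX:97333840-97377216, minus strand. Wild type read 10.6, 16.2 and 15.5 CPM at day 0, 8.58, 8.87 and 7.17 CPM at day 4, 6.58, 5.78 and 6.61 CPM at day 7 and 9.22, 7.20 and 9.38 CPM at day 14. Every wild-type library after day 0 lay below every one at day 0. The differences were -0.73 ± 0.23 at day 4, -1.08 ± 0.23 at day 7 and -0.67 ± 0.23 at day 14 (limma FDR 0.0292, 0.00173 and 0.0311). In labelled knockout it read 13.2 and 18.5 CPM at day 0 and 8.52 and 8.36 CPM at day 4 (difference -0.85 ± 0.29, limma FDR 0.0471). That call was lost in 20 of 32 alternatives, among them without replicate 2 of the labelled knockout at all days (-0.55, limma FDR 0.356). At day 7 the labelled-knockout libraries read 7.14 and 10.96 CPM (-0.78 ± 0.29), which passed with the replicate block (limma FDR 0.0345) and not without it (0.0541). Without replicate 2 the day 7 difference was -0.80 (limma FDR 0.146). In wild type the day 4 call was lost without day 0 replicate 2 (limma FDR 0.119) or 3 (0.109), day 4 replicate 1 (0.0527) or 3 (0.110). The day 14 call was lost without day 0 replicate 2 (0.119) or 3 (0.105) or day 14 replicate 2 (0.124). Without wild-type replicate 3 at all days neither passed (0.301 and 0.155).

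The death effectors divided. Pmaip1, on chr18:66458533-66465565, plus strand, fell steeply in both genotypes. Wild type read 113, 195 and 260 CPM at day 0, 54.6, 62.7 and 45.1 CPM at day 4, 35.5, 29.2 and 17.1 CPM at day 7 and 31.3, 25.1 and 15.3 CPM at day 14. Labelled knockout read 209 and 353 CPM at day 0, 71.2 and 83.5 CPM at day 4, 41.2 and 52.5 CPM at day 7 and 33.4 and 46.1 CPM at day 14. In each genotype every later library lay below every day 0 library. The wild-type differences were -1.73 ± 0.33, -2.76 ± 0.33 and -2.94 ± 0.33 at days 4, 7 and 14 (limma FDR 0.000767, 4.74e-06 and 1.66e-06). In labelled knockout they were -1.81 ± 0.40, -2.54 ± 0.40 and -2.78 ± 0.40 (limma FDR 0.00361, 0.000173 and 5.47e-05). Without replicate 2 of the labelled knockout at all days the last 2 remained called (-2.29 and -2.58, limma FDR 0.0217 and 0.00937). The day 4 difference did not (-1.50, limma FDR 0.130), nor without that replicate at day 0 alone (limma FDR 0.0531).

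Pmaip1 also stood higher in labelled knockout than in wild type within all 8 same-number pairs. The 2 labelled-knockout libraries lay above all 3 wild-type libraries on days 4, 7 and 14. The differences were 0.60 ± 0.36, 0.52 ± 0.36, 0.82 ± 0.36 and 0.76 ± 0.36 on days 0, 4, 7 and 14, and none passed, with or without the replicate block (limma FDR 0.591, 0.899, 0.450 and 0.407 without it). Without replicate 2 of the labelled knockout they were 0.22, 0.40, 0.66 and 0.55. The changes from day 0 differed between genotypes by -0.08 to 0.22, with intervals from -1.17 to 1.31.

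Perp, which encodes a membrane protein of desmosomes and a p53 apoptosis effector, lies on chr10:18845020-18857073, plus strand. The day 0 levels of Perp were 353, 554 and 438 CPM in wild type, and 767 and 1010.0 CPM in labelled knockout. At day 4 the values were 184, 295 and 210 CPM against 329 and 523 CPM, and the day 7 values 190, 250 and 246 CPM against 281 and 403 CPM. At day 14 wild type read 228, 287 and 299 CPM and labelled knockout 276 and 379 CPM. The genotypes were apart on days 0, 4 and 7 and overlapped on day 14.

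The Perp difference was 1.00 ± 0.26 at day 0, 0.88 ± 0.26 at day 4, 0.57 ± 0.26 at day 7 and 0.26 ± 0.26 at day 14 (limma FDR 0.0603, 0.163, 0.492 and 0.866), so it did not pass in limma when libraries were unpaired. With the replicate number as a block it was 1.02, 0.90, 0.59 and 0.28, with limma FDR 0.000207, 0.00100, 0.0203 and 0.288. At day 0 DESeq2 also called it (0.94, FDR 0.0365), and edgeR did not. Without replicate 2 of the labelled knockout at all days the differences were 0.79, 0.55, 0.32 and 0.05, none of them called. In the authors' deposited table the log2 fold change of Perp was 0.91, 0.85, 0.59 and 0.31 at the same days, with adjusted p 0.0625, 0.0883, 0.129 and 0.653. Squamous markers were also higher in labelled knockout at day 0, for 8 of 11 tested. Their summed level was higher in both labelled-knockout libraries than in wild type on each day. The part of these markers in the Perp result was not tested.

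**Figure D2:**
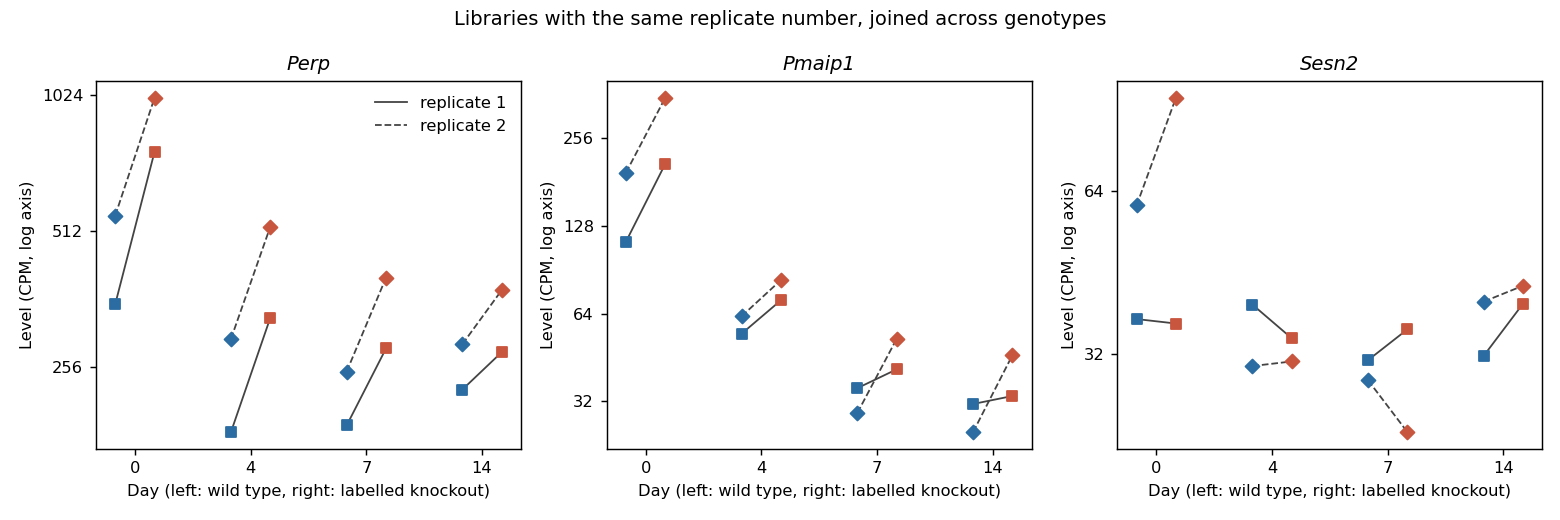
Levels of Perp, Pmaip1 and Sesn2 in CPM (vertical axis, log scale) in libraries of the same replicate number, wild type to the left (blue) and labelled knockout to the right (red), at days 0, 4, 7 and 14. Solid lines join replicates 1 and dashed lines replicates 2. All 8 lines rise for Perp and for Pmaip1, and 5 of 8 rise for Sesn2.

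Over time Perp fell in both genotypes. The wild-type differences from day 0 were -0.97 ± 0.23, -0.96 ± 0.23 and -0.71 ± 0.23 at days 4, 7 and 14 (limma FDR 0.00543, 0.00427 and 0.0234). In labelled knockout they were -1.08 ± 0.29, -1.38 ± 0.29 and -1.44 ± 0.29 (limma FDR 0.0128, 0.00178 and 0.000994). The change to day 14 differed between genotypes by -0.74 ± 0.37 (limma FDR 0.560), and passed with the replicate block (limma FDR 0.0377). With no block and replicate 2 of the labelled knockout left out, it was -0.74 (limma FDR 0.509). The wild-type call at day 14 was lost without day 0 replicate 2 (limma FDR 0.122) or 3 (0.0535) and without day 14 replicate 1 (0.0962). Without wild-type replicate 3 at all days neither the day 4 nor the day 14 fall passed (0.0917 and 0.0999). The labelled-knockout call at day 4 was lost without day 0 replicate 2 (limma FDR 0.109), without day 4 replicate 1 (0.164) and without replicate 2 at all days (-1.17, 0.0579). At days 7 and 14 it held without the latter (-1.41 and -1.42, limma FDR 0.0224 and 0.0166).

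Bbc3, which encodes the BH3-only protein Puma, was sparse, with 13 to 201 reads per library. It lies on chr7:16308393-16318205, plus strand. Wild type read 6.34, 4.05 and 6.82 CPM at day 0 and 4.87, 4.88 and 2.40 CPM at day 14, and labelled knockout 5.19 and 7.95 CPM against 3.53 and 3.95 CPM. All differences from day 0 were negative, from -0.43 to -0.56 in wild type and from -0.55 to -0.74 in labelled knockout, and none passed. Their SE were 0.31 in wild type and 0.38 in labelled knockout. Bax, the pore-forming protein of the mitochondrial outer membrane, lies on chr7:45461697-45466898, minus strand, and ranged from 56.3 to 94.97 CPM. Its differences from day 0 lay between -0.13 and 0.12 in the 6 comparisons, and none passed. In wild type its 95% intervals together spanned -0.44 to 0.37. A gene on the same strand shares 192 exon bases with Bax and has no row in the table.

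Counted together, 0 of the 10 targets were called between genotypes on each of the 4 days by limma, where 2.2%, 1.15%, 1.64% and 4.21% of all tested genes were. At an unadjusted p under 0.05 the counts were 1, 1, 2 and 0. For unadjusted counts, here and below, no share over all tested genes is given. edgeR called 0 on each day and DESeq2 1, 0, 0 and 0. The median difference of the members was 0.18, 0.05, 0.09 and 0.25 on days 0, 4, 7 and 14, beside 0.03, 0.02, -0.02 and -0.01 over all tested genes. The labelled-knockout mean was the higher for 9, 6, 6 and 7 of the 10 genes. Groups did not overlap for 2, 2, 5 and 2 genes. No share over all tested genes stands beside these last counts, so they describe the members alone. In the authors' deposited table none of the 10 had an adjusted p under 0.05 on any day, and the lowest was 0.0625. There, 2.36%, 2.71%, 6.63% and 8.08% of the genes with an adjusted p were under it.

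**Figure D3:**
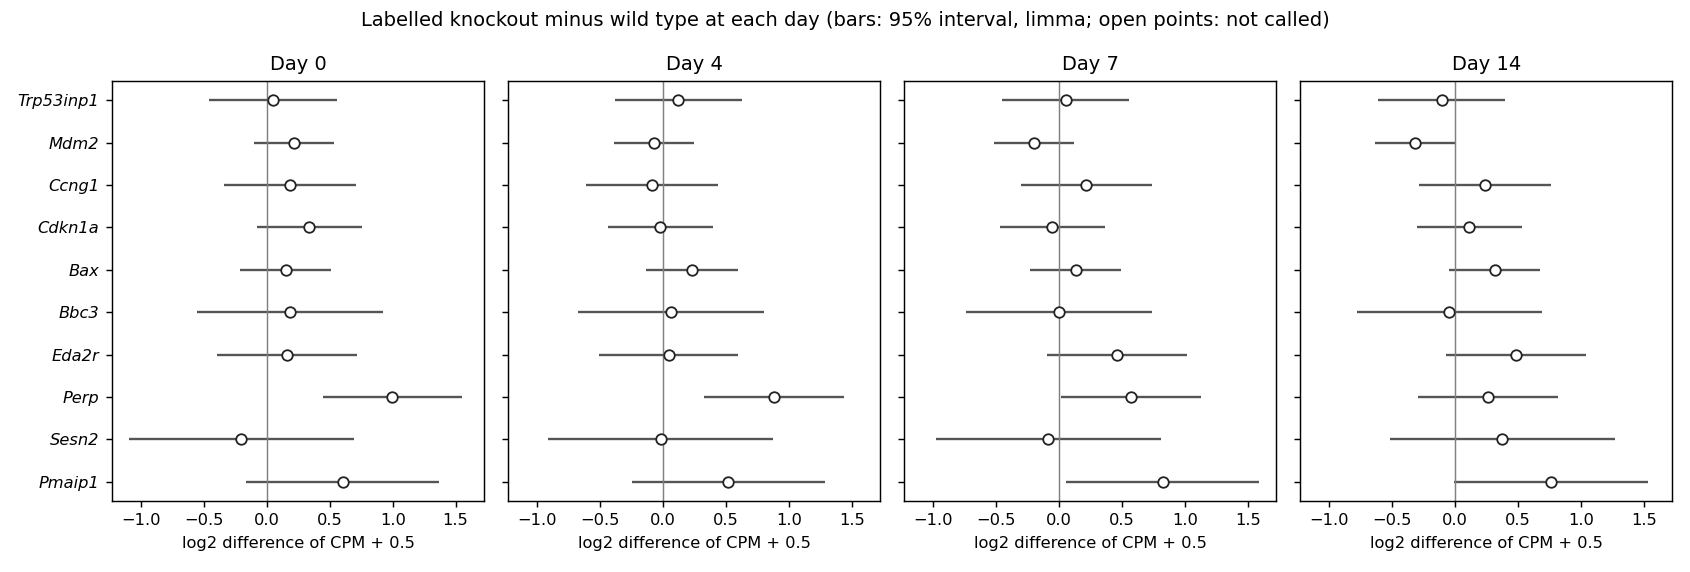
Difference between labelled knockout and wild type (horizontal axis, log2 difference of CPM + 0.5) for each of the 10 genes at days 0, 4, 7 and 14. Circles are limma estimates from 3 and 2 libraries, bars their 95% intervals, and open circles mark that none was called in the unpaired limma model. Perp shrinks from 1.00 at day 0 to 0.26 at day 14, and Mdm2 goes from 0.22 to -0.32.

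Over time the members' calls were read beside the share of all tested genes called. In wild type 3 of 10 were lower at day 4 (Pmaip1, Perp and Eda2r) where 27% of all tested genes were called in either direction and 13.3% lower. At day 7 it was 4 of 10, Sesn2 being added, against 35.5% of all genes and 16.4% lower. At day 14 it was 4 lower and 2 higher (Mdm2 and Trp53inp1) against 40.3%, of which 18.5% of the tested genes were lower and 21.8% higher. The median of the members was -0.30, -0.39 and -0.28, beside 0.00, 0.01 and 0.00 for all genes.

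In labelled knockout 3 of 10 were lower at day 4, and 2 of 10, Pmaip1 and Perp, at days 7 and 14, against 20.1%, 26.7% and 32% of all tested genes in either direction and 10.8%, 14.2% and 17.7% lower. The median of the members was -0.49, -0.48 and -0.29. DESeq2 and the replicate block each called 4 at day 7. Without replicate 2 of the labelled knockout at all days the counts were 0, 2 and 2. The change from day 0 was called as different between genotypes for 0 of 10 at each day by limma, edgeR and DESeq2, against 0.0191%, 0.152% and 1% of all genes. At an unadjusted p under 0.05 there were 0, 0 and 1, the last being Mdm2. The comparisons of days 4, 7 and 14 share their day 0 libraries, so that a high or low library at day 0 enters all 3. Scaling by library size alone in place of TMM moved the median of all genes up by 0.119 in wild type at day 7, and by 0.162 and 0.150 in labelled knockout at days 7 and 14. Of the genes then called, 62.7%, 64.8% and 62.3% were higher in wild type at days 4, 7 and 14 against 50.7%, 53.7% and 54% with TMM. In labelled knockout these shares were 56.3%, 62.5% and 58.3% against 46.1%, 46.9% and 44.8%. The members called higher and lower were then 0 and 2, 1 and 4, and 2 and 3 in wild type, and 0 and 2, 0 and 2, and 1 and 2 in labelled knockout.

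**Figure D4:**
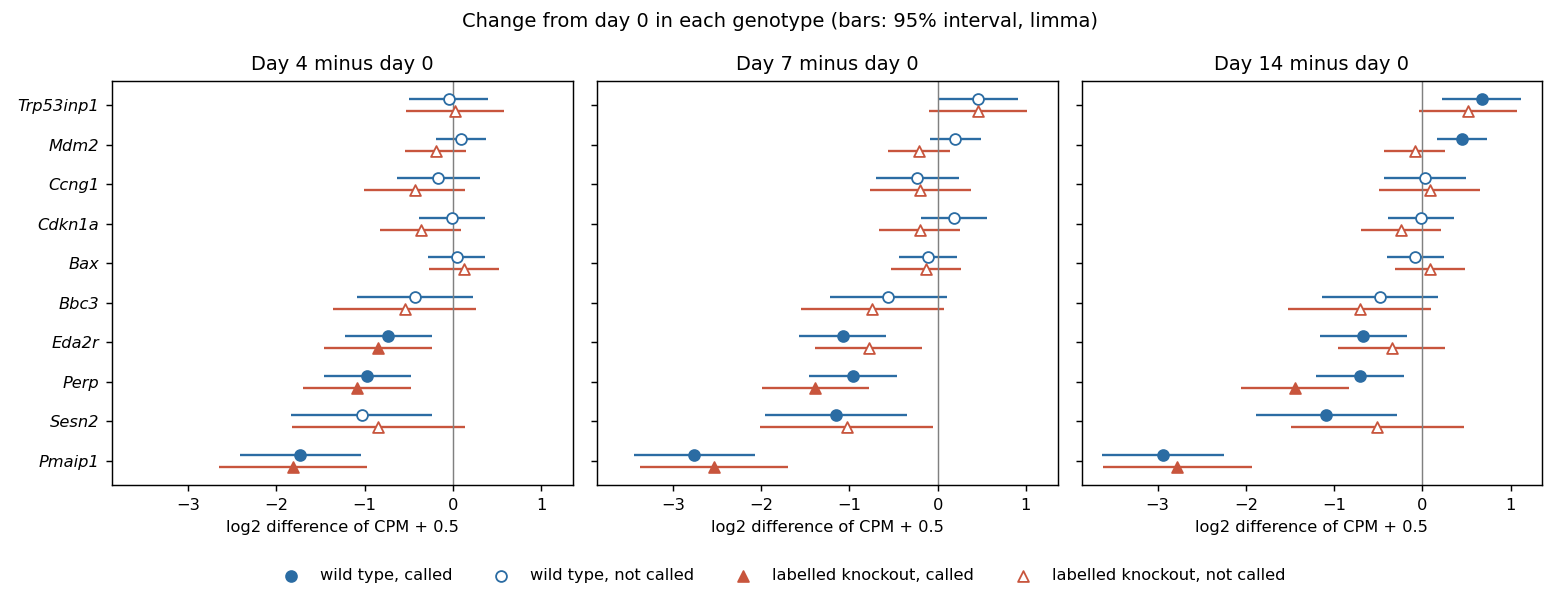
Change from day 0 (horizontal axis, log2 difference of CPM + 0.5) at days 4, 7 and 14 for each of the 10 genes, in wild type (blue circles, 3 libraries a day) and labelled knockout (red triangles, 2 libraries a day). Bars are 95% intervals from limma, and filled symbols were called. Pmaip1 lies furthest left in all 3 panels, at -2.94 and -2.78 by day 14, while no change of Cdkn1a, Ccng1 or Bax was called, the largest being -0.43 for Ccng1 in labelled knockout at day 4.

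Ordering the 8 group means of each gene showed few clear steps. For Perp the labelled-knockout mean at day 0, 889 ± 172 CPM (SD, n = 2), stood apart from the next, wild type day 0 at 448 ± 101 CPM (SD, n = 3), and none of the other neighbouring groups were apart. For Pmaip1 the 2 clear steps lay between wild type day 0 (189 ± 73.7 CPM, n = 3) and labelled knockout day 4 (77.4 ± 8.73 CPM, n = 2), and between that group and wild type day 4 (54.2 ± 8.81 CPM, n = 3). Sesn2, Trp53inp1 and Eda2r each had 1 clear step among their 7 neighbouring pairs. Cdkn1a, Mdm2, Bbc3, Ccng1 and Bax had 0 of 7.

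Within a day, libraries of the same number tended to depart together. The difference between replicates 2 and 1 had the same sign in both genotypes for 7 of 10 members on each of the 4 days, or 28 of 40 in all. Over 12336 genes the same-numbered libraries also departed together (r 0.247 to 0.579), so this was not particular to the members. For Perp, Sesn2 and Trp53inp1 it was so on 4 of 4 days. At day 0 Perp was higher in replicate 2 by 0.65 in wild type and 0.40 in labelled knockout, on the log2 scale, and at day 4 by 0.68 and 0.67. Labelled knockout was the higher in 54 of the 80 same-number pairs of members. No share over all tested genes stands beside the counts of signs and pairs.

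Of the p53 family, Trp53 did not pass in any comparison, while Trp63 fell over time. Trp53 averaged 45.5 ± 14.4 CPM in wild type at day 0 and 41.9 ± 8.88 CPM at day 14 (SD, n = 3). Trp63, which encodes p63, was lower at day 14 in wild type (-0.81 ± 0.22, limma FDR 0.00643) and in labelled knockout (-1.03 ± 0.26, limma FDR 0.00667). The latter call was lost without labelled-knockout replicate 1 at day 0 (limma FDR 0.0968) or replicate 2 at day 14 (0.0527). Without replicate 2 at all days the labelled-knockout difference was -1.21. Trp63 went from 138 ± 35.2 to 77.9 ± 14.7 CPM in wild type (SD, n = 3). Trp73 rose in wild type from 1.99 ± 0.835 to 25.8 ± 2.20 CPM (3.46 ± 0.32, limma FDR 2.26e-07). In labelled knockout it went from 48.9 ± 0.342 to 23.6 ± 9.74 CPM (SD, n = 2; -1.10 ± 0.39, limma FDR 0.0418), a call that was lost without replicate 2 (-0.63, limma FDR 0.502), without replicate 1 at day 0 (0.118) and in edgeR (FDR 0.0503). Of the 24 family members and upstream regulators 2 were higher and 4 lower in wild type at day 14, and 1 and 4 in labelled knockout (0 and 2 without replicate 2). Of all tested genes 21.8% were higher and 18.5% lower in wild type at that day, and 14.3% and 17.7% in labelled knockout, so that these counts lay near or below the background. The kinase gene Atr was called higher in both (0.78 and 0.82). In labelled knockout it was not called without replicate 2 at all days (limma FDR 0.0677), without that replicate at day 0 alone (0.0912) or without replicate 1 at day 14 (0.0804).

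A wider list of 36 other p53 targets, 34 of them tested, had more genes called lower than higher. It and the lists below were chosen with earlier results of these data known, so their counts are descriptions. In wild type 10, 17 and 15 of the 34 were lower at days 4, 7 and 14, and 0, 1 and 3 higher, where 13.3%, 16.4% and 18.5% of all tested genes were lower. In labelled knockout 12, 14 and 15 were lower and 0, 1 and 2 higher, where 10.8%, 14.2% and 17.7% of all tested genes were lower. At day 14, 12 were lower in both genotypes, which is 80% of each list of 15. For this overlap and those of the lists below, no share over all tested genes stands beside the count. Without replicate 2 the labelled knockout had 1, 5 and 8 lower at the 3 days. The list's median was -0.38 in wild type and -0.34 in labelled knockout at day 14. Sfn, which encodes 14-3-3 sigma, a G2 arrest protein of stratified epithelium, was lower at day 14 by log2 differences of -2.10 and -2.38 (limma FDR 1.43e-06 and 7.79e-06). Dram1, a lysosomal regulator of autophagy, changed by -1.85 and -2.11 (limma FDR 6.57e-06 and 3.01e-05). Plk2, a polo-like kinase, changed by -1.46 and -1.84, and the ephrin receptor gene Epha2 by -1.47 and -2.07. In each pair of values wild type comes first. Without replicate 2 the labelled-knockout values were -2.42 for Sfn, -2.30 for Dram1, -1.775 for Plk2 and -1.335 for Epha2. Ak1, which encodes adenylate kinase 1, went the other way in wild type, from 14.4 ± 2.07 to 52.97 ± 11.9 CPM (SD, n = 3; 1.83 ± 0.30, limma FDR 9.74e-05).

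Between genotypes 0 of the 34 were called at days 0 and 4 by limma, although 4 were under an unadjusted p of 0.05 on each of these days. Sfn was higher in labelled knockout at day 7 (1.10 ± 0.26, limma FDR 0.0396), with 103 ± 8.93 against 48.3 ± 8.93 CPM (SD, n = 2 and 3). Ak1 was lower at day 14 (-1.49 ± 0.33, limma FDR 0.0143), with 18.5 ± 4.62 against 52.97 ± 11.9 CPM. Without replicate 2 of the labelled knockout neither passed, at 1.02 for Sfn and -1.72 for Ak1 (limma FDR 0.355 and 0.111). Sfn was also lost without labelled-knockout replicate 1 (limma FDR 0.156) or wild-type replicate 1 (0.103) or 3 (0.207) at day 7, and without wild-type replicate 2 at day 14 (0.0550). Ak1 was lost without labelled-knockout replicate 1 (0.154) or wild-type replicate 2 (0.0717) or 3 (0.0668) at day 14. The change from day 0 differed between genotypes for 0 of the 34 at any day by limma, with 1, 1 and 4 under an unadjusted p of 0.05.

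Around the death effectors, 13 of 15 further genes of the Bcl-2 family were tested. In wild type 3 were higher and 6 lower at day 14, and in labelled knockout 1 and 4 (0 and 4 without replicate 2). Beside these stand 21.8% higher and 18.5% lower over all tested genes in wild type, and 14.3% and 17.7% in labelled knockout. Hrk, which encodes the BH3-only protein Harakiri, rose in wild type from 0.270 ± 0.366 to 4.66 ± 1.04 CPM (SD, n = 3; 2.83 ± 0.30, limma FDR 1.14e-06), and 1 of the wild-type day 0 libraries held no read of it. Hrk also rose in labelled knockout (1.57 ± 0.37, limma FDR 0.00370), from 1 and 2 reads at day 0, but was not called without replicate 2 (1.77, limma FDR 0.0583). The labelled-knockout libraries reached 1.16 ± 0.184 CPM (SD, n = 2), and the gene was lower there than in wild type at days 4, 7 and 14 (-1.55, -1.96 and -1.62, limma FDR 0.0293, 0.00622 and 0.00976). edgeR did not call these Hrk differences (FDR 0.0988, 0.0630 and 0.0997), and neither did limma without replicate 2 of the labelled knockout (0.453, 0.143 and 0.213). Bok, a relative of Bax, rose in wild type from 7.91 ± 3.07 to 38.6 ± 6.79 CPM (2.27 ± 0.35, limma FDR 6.03e-05). Its change to day 14 differed in labelled knockout by -3.01 ± 0.55 (limma FDR 0.0129), and by -3.59 without replicate 2 (limma FDR 0.0959). That call was also lost without replicate 1 of the labelled knockout at day 0 (0.0611) or day 14 (0.0796), and without wild-type replicate 3 at day 0 (0.0505). The survival gene Bcl2 fell in both (-1.31 and -1.28, limma FDR 0.000209 and 0.00215). Its labelled-knockout value without replicate 2 was -1.705.

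Beside Cdkn1a, 15 inhibitors and cyclins of the G1 phase were tested. At day 14, 6 were lower and 0 higher in each genotype, and 5 were lower in both, where 18.5% of all tested genes were lower in wild type and 17.7% in labelled knockout. Without replicate 2 the labelled knockout had 4 lower. Ccnd2, which encodes cyclin D2, changed by -1.71 in wild type and -2.55 in labelled knockout (limma FDR 0.000253 and 6.68e-05). Its labelled-knockout value without replicate 2 was -3.496. Of 20 proliferation genes 2 were lower and 1 higher at day 14 in wild type, and 16 lower in labelled knockout (15 without replicate 2), against the same shares of all genes. Their change to day 14 was called as different between genotypes for 0 of 20 by limma, with 9 under an unadjusted p of 0.05. Between genotypes 0 of 20 were called on any day by limma. At day 0, 14 were under an unadjusted p of 0.05, and 0 on the later days. The share of all tested genes under that unadjusted p is not given, so these counts describe the list alone. Their summed level at day 0 was 239 to 740 CPM in wild type and 577 to 1755 CPM in labelled knockout.

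Sesn2 belongs also to the integrated stress response, of which 20 further genes were tested. At day 14, 6 were lower and 0 higher in wild type, and 4 lower and 3 higher in labelled knockout (3 and 0 without replicate 2). Over all tested genes 18.5% were lower and 21.8% higher in wild type, and 17.7% and 14.3% in labelled knockout. Atf3, a transcription factor of that response and of injury, fell from 310 ± 101 to 9.30 ± 2.36 CPM in wild type (SD, n = 3; -4.96 ± 0.45, limma FDR 1.67e-07) and changed by -4.76 in labelled knockout. Its labelled-knockout value without replicate 2 was -5.875. Psat1, a serine synthesis enzyme, was higher in labelled knockout at day 14 (1.54 ± 0.41, limma FDR 0.0393), but not with the replicate block (0.0722), in edgeR (0.0537), without replicate 2 (1.28, 0.382), without replicate 1 at day 14 (0.0941) or without wild-type day 14 replicate 2 (0.0570) or 3 (0.201). For Eda2r, 6 genes of the ectodysplasin pathway were tested. At day 14, 2 were higher and 2 lower in each genotype, Edaradd being higher and Traf6 and Tab2 lower in both, and without replicate 2 the labelled knockout had 2 higher and 0 lower. Edaradd in wild type was not called by edgeR (FDR 0.0662) or by limma without any 1 of several libraries (0.253 without day 0 replicate 2), nor were Traf6 and Tab2 in labelled knockout by limma without replicate 2 (0.176 and 0.319). Tab2 in wild type was lost without day 0 replicate 3 (0.0785) or day 14 replicate 2 (0.0517) or 3 (0.0514).

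Desmosome genes, beside Perp, were also called lower over time. Of 12 desmosome genes, 9 were tested, and at day 14, 7 were lower in wild type and 8 in labelled knockout, with 7 lower in both, where 18.5% and 17.7% of all tested genes were lower. Without replicate 2 the labelled knockout again had 8 lower. The plakophilin gene Pkp1 changed by -2.18 and -2.91 (limma FDR 7.86e-07 and 9.75e-07), and the desmocollin gene Dsc2 by -2.18 and -2.77 (limma FDR 1.05e-06 and 1.95e-06). Their labelled-knockout values without replicate 2 were -2.797 and -3.361. Pkp2 was the 1 gene that rose in wild type (0.50 ± 0.16, limma FDR 0.0185; 0.0763 without day 0 replicate 2 and 0.0870 without day 14 replicate 1), named here after its value was seen. At day 0, 3 were higher in labelled knockout, and their values did not overlap with wild type. These were Dsc3, at 35.3 ± 8.13 against 1.63 ± 0.855 CPM, Pkp1, at 727 ± 89.2 against 274 ± 60.2 CPM, and Dsg3, at 250 ± 42.6 against 92.7 ± 29.0 CPM (SD, n = 2 and 3). Their limma FDR were 8.06e-05, 0.00469 and 0.0146. Dsc3 remained higher at days 4 and 7 (3.19 and 2.04, limma FDR 0.00117 and 0.0285). Without replicate 2 of the labelled knockout, Dsg3 at day 0 (1.29, limma FDR 0.141) and Dsc3 at days 4 and 7 (2.84 and 1.81, limma FDR 0.0980 and 0.346) did not pass. Pkp1 at day 0 did not pass without replicate 1 of the labelled knockout on that day (limma FDR 0.0634). Dsc3 at day 7 did not pass without any 1 of the 5 libraries of that day (limma FDR 0.0767 to 0.275). The 8 squamous markers called higher in labelled knockout at day 0 moved with these genes (2 were called without replicate 2), and their part in that result was not tested.

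**Figure D5:**
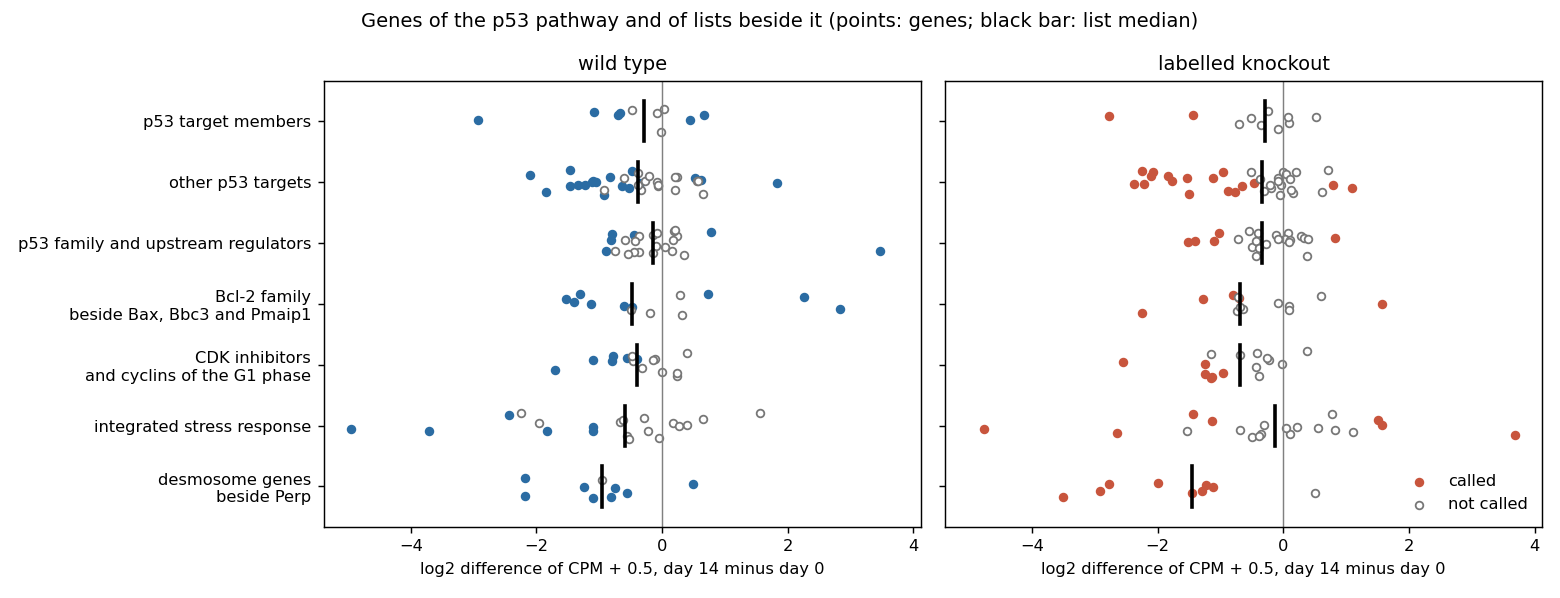
Change from day 0 to day 14 (horizontal axis, log2 difference of CPM + 0.5) for every tested gene of 7 lists, in wild type (left) and labelled knockout (right). Points are genes, filled where called, with vertical scatter for legibility, and black bars are list medians. List medians run from -0.96 to -0.14 in wild type and from -1.45 to -0.13 in labelled knockout, where the choice of scaling moved the median of all genes by 0.150, and the 10 targets sit at -0.28 and -0.29.

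The genes whose levels were most like each member over the 20 libraries, among 11537 genes with a mean of at least 2 CPM, differed from member to member. Pmaip1 was most like Fam188a and Myl12a (Pearson r 0.97 for both). Perp was most like Rab11a, a recycling endosome GTPase (0.95), and the desmosomal cadherin gene Dsg3 (0.94). Sesn2 was most like Plaur, the urokinase receptor gene (0.94), and Ppp1r15b, a phosphatase subunit of the stress response (0.93). Trp53inp1 was most like Fam134b (0.93) and Eid1 (0.91), and Ccng1 most like Nenf (0.91) and Serpinb6a (0.88). For Eda2r these were Fbxl5 (0.89) and Chmp3 (0.88), for Mdm2 Gtl3 (0.87) and Ppif (0.85), and for Bbc3 the immediate early gene Ier2 (0.86) and Tpst2 (0.85). For Bax they were Atp6v1f (0.84) and Adprhl2 (0.82), and for Cdkn1a Atxn2l (0.73) and Trim28 (0.69), the loosest of the 10. These are descriptions, since libraries share days and genotypes and the most alike of many genes is high by construction.

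Among themselves the members formed no single pattern. Pearson r over the 20 libraries was highest for Pmaip1 and Perp (0.78), Perp and Eda2r (0.77) and Pmaip1 and Eda2r (0.76). It was lowest for Bbc3 and Trp53inp1 (-0.58) and Pmaip1 and Trp53inp1 (-0.56). Once each library was set against its group mean, Pmaip1 and Perp fell to 0.26, while Perp and Trp53inp1 stood at 0.76 and Mdm2 and Trp53inp1 at 0.71. Cdkn1a had an r between -0.28 and 0.19 with each of the other members over the 20 libraries.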

How the data were processed

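RNA was sequenced from 20 mouse tracheal epithelial cultures. The deposited signal values are the authors' gene-level read counts after division by size factors that differ between days, printed with 2 decimals, as the values show. Per the submitters' processing notes, STAR 2.3.0e, DESeq2 1.4.5 and build mm10 were used, with roles not stated there. A second table deposited by the authors holds, per the file headers, log2 fold changes between genotypes at each day with their adjusted p-values.

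Whole reads were recovered by dividing each library by the value of 1 read, and 100% of nonzero values came out whole within 0.1 reads. Totals were 3.27 to 31.5 M reads, with the fewest reads for Bbc3 and Eda2r among the members. Genes with at least 0.5 CPM in 2 libraries were kept, 15738 of 38355. The main test was limma 3.58.1 (R 4.3.3; trend and robust options) on log2(CPM + 0.5), TMM-scaled, with the 8 groups as terms, because the files hold scaled values. Fold changes on that scale understate those of low genes. FDR is the Benjamini-Hochberg value over the 15738 genes, with calls under 0.05. edgeR 4.0.16 (quasi-likelihood) and DESeq2 1.42.0 on the recovered reads, other scalings, pseudocounts and filters, left-out libraries and a replicate block were alternatives. The steps were tested on simulated data.

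Within a day, same-numbered libraries of the 2 genotypes departed together from their group means (r 0.247 to 0.579 for all 8 pairs, over 12336 genes). The 2 labelled-knockout libraries of a day mirror each other around their mean, so the 8 values are not independent. The main test left libraries unpaired, and the replicate block was an alternative that gives each number 1 effect over all days. Between days, same-numbered wild-type libraries had r of -0.02 to 0.66, 0.08 to 0.43 and -0.05 to 0.45 for numbers 1, 2 and 3. In labelled knockout r was 0.02 to 0.77. The likeness thus did not hold evenly over days, which limits the blocked calls. The labels do not say what the number marks. The members and the gene lists were chosen with earlier results of these data known. Genes were named because they are members, or because they had the lowest FDR in a list or lay nearest to a member by r. Coordinates are GRCm38, and promoter windows come from RefSeq (GRCm38.p6).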

Additional observations from a re-analysis of the deposited data

How the results depend on the processing

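Under 36 alternative settings, 32 of which bear on each member, the 20 called member differences gave 640 values, of which 581 stayed called, 59 did not and 0 turned in sign. Of the 20, 9 were called under every alternative. The number of members called was 1 between genotypes at day 0 with DESeq2, with the replicate block and without both day 4 libraries whose titles name day 3. The replicate block gave 1 at days 4 and 7, 4 for labelled knockout at day 7, where DESeq2 also gave 4, and 1 for the difference in change to day 14. It changed no call of a member beyond those named with their blocked values. For labelled knockout at day 4 the count was 1 without the libraries whose titles name day 3 and 0 without replicate 2 at all days. Without wild-type replicate 3 at all days it was 1 for wild type at day 4 and 1 at day 14. Leaving out 1 library at a time gave 0 to 1 between genotypes at day 0 and 0 at the other days, and 2 to 4, 3 to 5 and 3 to 6 in wild type at days 4, 7 and 14. In labelled knockout it gave 0 to 4, 2 to 4 and 2 to 3. Over all genes, the calls between genotypes ranged from 8 to 577 at day 0 (347 as reported), 44 to 356 at day 4 (181), 26 to 524 at day 7 (258) and 127 to 864 at day 14 (663). The 48 called differences of genes named from the other lists gave 1548 values, of which 122 lost the call and 0 turned in sign. Depth ranged down to 13 reads for Bbc3 and 24 for Eda2r in 1 library, and its part in calls was not tested. The cause of these changes was not tested.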
